A study of Mus musculus with 12 samples.

Results

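The Cyp2 genes encode the largest family of drug- and steroid-metabolising cytochrome P450 enzymes in the mouse. They are described here in livers given a virus directed against G0s2 or Rgs16. Members were all genes whose symbol is Cyp2 followed by a subfamily letter and a number, which gave 48 of the 55536 genes in the deposited tables. Pseudogenes and families such as Cyp24 or Cyp27 do not meet that rule. The 48 genes were 15 of subfamily Cyp2c, 8 each of Cyp2d and Cyp2j, 5 of Cyp2b, 4 of Cyp2a, and 1 each of Cyp2e, Cyp2f, Cyp2g, Cyp2r, Cyp2s, Cyp2t, Cyp2u and Cyp2w.

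Liver RNA came from 12 samples of wild-type C57BL/6J mice aged 8 weeks, in 3 groups of 4. All animals received 0.1 OD of an adenovirus by the tail vein and were killed 12 days later at zeitgeber time 12, after 6 h without food in the daytime. The virus carried a short hairpin RNA (shRNA) against lacZ (shLacZ, the control), against G0s2 (shG0s2) or against Rgs16 (shRgs16). The G0s2 protein restrains triglyceride breakdown in lipid droplets, and the Rgs16 protein shortens signals from G protein-coupled receptors. The labels give no sex, nor do they say whether each replicate is its own animal. The p-values therefore reflect only how these samples scatter, which may be technical.

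Cytochrome P450 enzymes of this family are haem proteins of the endoplasmic reticulum. They take electrons from cytochrome P450 reductase and insert oxygen into drugs, steroids, fatty acids and bile acids. In mouse liver several members differ between males and females under the control of growth hormone, and others are induced by foreign compounds through the nuclear receptors CAR (Nr1i3) and PXR (Nr1i2). Cyp2e1, Cyp2c29 and some other members are most abundant around the central vein of the lobule, whereas Cyp2f2 is a periportal gene.

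The samples held 18458222 to 27170419 counts each. The targeted genes were checked first, as CPM, a count relative to its library's size, with sizes scaled by the trimmed mean of M values (TMM). G0s2 was at 66.6 to 87.4 in shLacZ and 24.6 to 49.3 in shG0s2, and Rgs16 was at 105 to 212 in shLacZ and 14.4 to 37.4 in shRgs16. Rgs16 was also low in shG0s2, at 43.9 to 71.3. TMM places the median log2 fold change of all tested genes at 0.01 in each comparison. Scaling on library size alone moves that median to 0.50 in shG0s2 against shLacZ and 0.31 in shRgs16 against shLacZ, with 89.0% and 85.7% of calls higher in place of 51.7% and 50.1%. A change given below is therefore relative to the typical gene.

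Markers of other cell types moved with the groups. Kupffer cell and macrophage markers were called higher for 9 of 10 in shG0s2 and 8 of 9 in shRgs16, and their summed level was 421 to 469 TPM in shLacZ, against 1084 to 1166 with shG0s2 and 784 to 966 with shRgs16. TPM is a level corrected for transcript length. Stellate and fibroblast markers were higher for 10 of 10 and for 6 of 10 (1 lower), with sums of 106 to 134, 481 to 657 and 189.5 to 289 TPM. T and NK cell markers were higher for 5 of 8 and 6 of 8, with sums of 7.0 to 19.6, 40.9 to 50.7 and 32.8 to 44.3 TPM. Cholangiocyte markers were higher for 3 of 6 and 2 of 6, with sums of 125 to 231, 246 to 350.2 and 139 to 237 TPM. Endothelial markers were higher for 1 and lower for 3 of 10 in shG0s2 and higher for 3 of 10 in shRgs16, with sums of 182 to 204, 286 to 327 and 241 to 325 TPM. The 11 hepatocyte markers tested included 10 lower in shG0s2, and 9 lower and 2 higher in shRgs16, yet their summed TPM was 35165 to 38376, 33457 to 49262 and 44146 to 48610.1 in the order shLacZ, shG0s2, shRgs16. On library size alone the hepatocyte counts were 8 lower and 1 higher, and 4 lower and 2 higher. The endothelial counts on that scaling were 6 higher and 1 lower in shG0s2, and 8 higher and 0 lower in shRgs16. Over all genes tested, TMM gave 31.3% higher and 29.2% lower in shG0s2, and 24.6% and 24.5% in shRgs16. Library size alone gave 64.6% and 7.99%, and 50.2% and 8.35%. No marker was at 0 in any group mean. In whole liver, fewer cells of a type and less RNA per cell cannot be told apart, and the part of these markers in the Cyp2 results was not tested.

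Most of the family was transcribed in control liver. In shLacZ, 36 of 48 members had a mean of at least 1 TPM, 26 at least 10 and 15 at least 100, and 7 had no count in any sample. Cyp2e1, which oxidises ethanol and paracetamol, was the most abundant member at 3283 ± 285 TPM (SD, n = 4), or 31.8% of the family total, and ranked 45 among all genes. It was followed by the steroid hydroxylase gene Cyp2d9 at 1541 ± 51.0 TPM, Cyp2f2 at 911 ± 59.2 TPM, Cyp2d10 at 842 ± 60.9 TPM, Cyp2c70 at 541 ± 150.4 TPM, Cyp2c29 at 501 ± 66.0 TPM, Cyp2d26 at 466 ± 44.5 TPM and Cyp2a5 at 401 ± 119 TPM. Of these neighbours, the SD intervals of Cyp2f2 and Cyp2d10 and those of Cyp2c70, Cyp2c29, Cyp2d26 and Cyp2a5 overlap.

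Summed over the family, the deposited TPM was 10008, 10571, 10745 and 9929 in the shLacZ samples, 9479.9, 8263, 9325 and 8691 in shG0s2, and 10161, 10056, 11233 and 10224 in shRgs16. The shG0s2 sums all lay below the shLacZ sums, with a ratio of means of 0.867, while the shRgs16 sums overlapped them at a ratio of 1.01. As TMM CPM the ratios were 0.538 and 0.740, and as CPM on library size alone 0.758 and 0.909. The make-up of the family differed between the groups. The share of family TPM given by Cyp2e1 was 31.8% ± 2.67 (SD, n = 4) in shLacZ, against 16.3% ± 2.75 with shG0s2 and 25.2% ± 2.30 with shRgs16. The 4 Cyp2a genes gave 6.84% ± 0.982, 32.0% ± 1.69 and 16.8% ± 1.38 in the same order. Cyp2c genes gave 18.2% ± 2.49, 14.8% ± 0.852 and 25% ± 1.60, and Cyp2d genes 30.5% ± 0.719, 27.3% ± 0.328 and 24.2% ± 0.414. In shG0s2 the most abundant member was Cyp2a5 at 1981 ± 172 TPM, ahead of Cyp2e1 at 1458 ± 272 TPM, whereas in shRgs16 Cyp2e1 stayed first at 2629.7 ± 342 TPM, ahead of Cyp2a5 at 1265 ± 79.8 TPM.

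**Figure D1:**
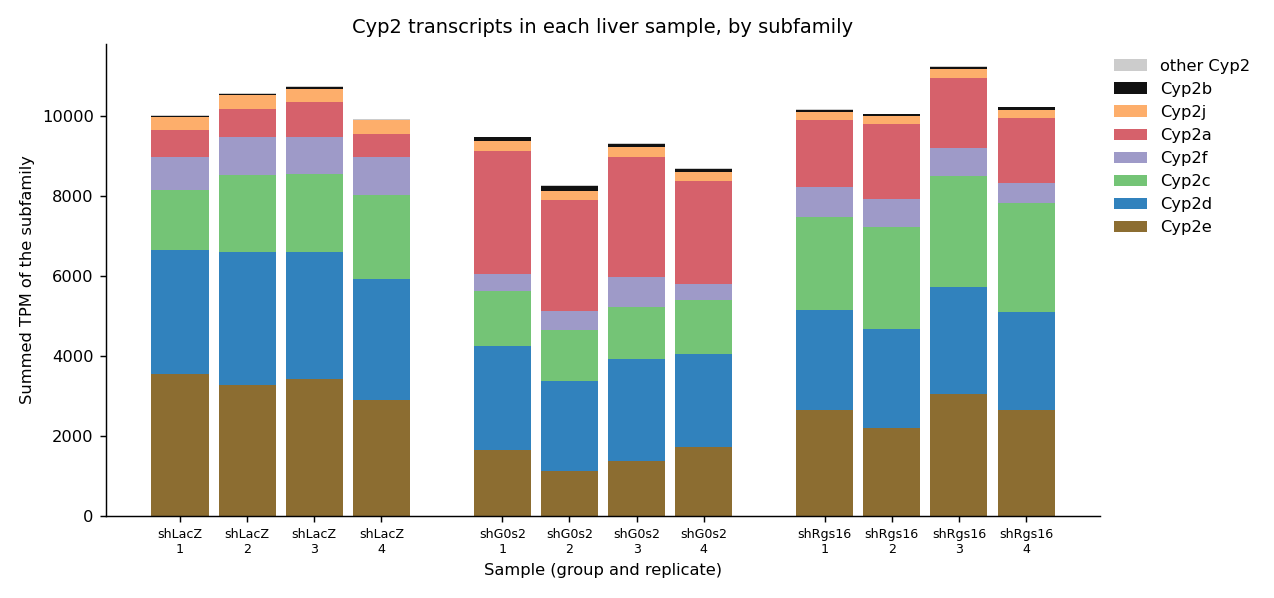
Summed TPM of each Cyp2 subfamily (stacked bars, linear axis) in each of the 12 liver samples, by group and replicate. The Cyp2a band covers 567 to 871 TPM in shLacZ, against 2575 to 3078 with shG0s2 and 1645 to 1889 with shRgs16, and the Cyp2e band is smallest in the 4 shG0s2 samples.

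The first comparison asked how these genes differed between the shG0s2 and shLacZ samples. Rgs16 was also low in shG0s2, and whether a change goes with G0s2 or with Rgs16 was not tested. Of 36 members that passed the filter on low counts, 6 were higher and 26 lower at an edgeR adjusted p below 0.05, that is 16.7% and 72.2%, and 4 were not called. Over all 15592 genes tested, 31.3% were higher and 29.2% lower, 60.5% in all. The median log2 fold change of the tested members was -1.01, with a range of -3.39 to 5.59, beside 0.01 over all genes. All 32 called members had groups that did not overlap, as did 89.1% of all genes called (53.9% of those tested). The filter was passed through 1 group alone by Cyp2b13, Cyp2g1 and Cyp2c69, so their fitted values are descriptions, and of the other 33 members 5 were higher and 25 lower. With library size alone, 10 were higher and 22 lower, beside 64.6% and 7.99% of all genes. By limma on log2(TPM + 1), 11 were higher and 15 lower, beside 74.3% and 4.63% of all genes. The 6 higher members were among them both times.

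The second comparison asked the same for the shRgs16 samples. Of 36 members tested, 7 were higher and 17 lower, that is 19.4% and 47.2%, and 12 were not called. Over all 15324 genes tested, 24.6% were higher and 24.5% lower, 49.1% in all. The median of the members was -0.21, with a range of -2.05 to 2.53. For 22 of the 24 called members the groups did not overlap, the exceptions being Cyp2c67 and Cyp2j9, and over all genes this held for 86.5% of those called (42.4% of those tested). Cyp2g1 and Cyp2s1 passed the filter through shRgs16 alone, and of the other 34 members 6 were higher and 17 lower. Scaling on library size alone gave 12 higher and 12 lower members, beside 50.2% and 8.35% of all genes. By limma on log2(TPM + 1), 15 were higher and 9 lower, beside 57.8% and 4.91% of all genes. Both alternatives moved the balance of all genes in the same direction as that of the members.

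The knockdowns were also set against each other in a model of all 12 samples. Of 37 members tested, 5 were higher in shG0s2 and 21 lower, that is 13.5% and 56.8%, and 11 were not called. Over all 16018 genes tested, 21.0% were higher and 20.5% lower, 41.5% in all, and 36.0% were called with groups that did not overlap, beside 25 of the 37 members. Without Cyp2b13, Cyp2c69 and Cyp2s1, which passed through 1 group alone, 4 of 34 members were higher and 20 lower. The comparisons with shLacZ share their control samples. Side by side, 4 members were higher in both (Cyp2a4, Cyp2a5, Cyp2a22 and Cyp2c55) and 17 were lower in both, 9 were lower in shG0s2 and not called in shRgs16, and 2 (Cyp2c23 and Cyp2c68) were higher in shRgs16 and not called in shG0s2. Cyp2c38 and Cyp2g1 were called in neither. The remaining tested members were Cyp2b9 and Cyp2b13, higher in shG0s2, and Cyp2s1, higher in shRgs16, the last 2 of them through the filter on 1 group. The 11 members tested in neither were Cyp2b19, Cyp2b23, Cyp2c65, Cyp2c66, Cyp2j7, Cyp2j8, Cyp2j11, Cyp2j12, Cyp2j13, Cyp2t4 and Cyp2w1, with group means of at most 0.255 TPM.

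**Figure D2:**
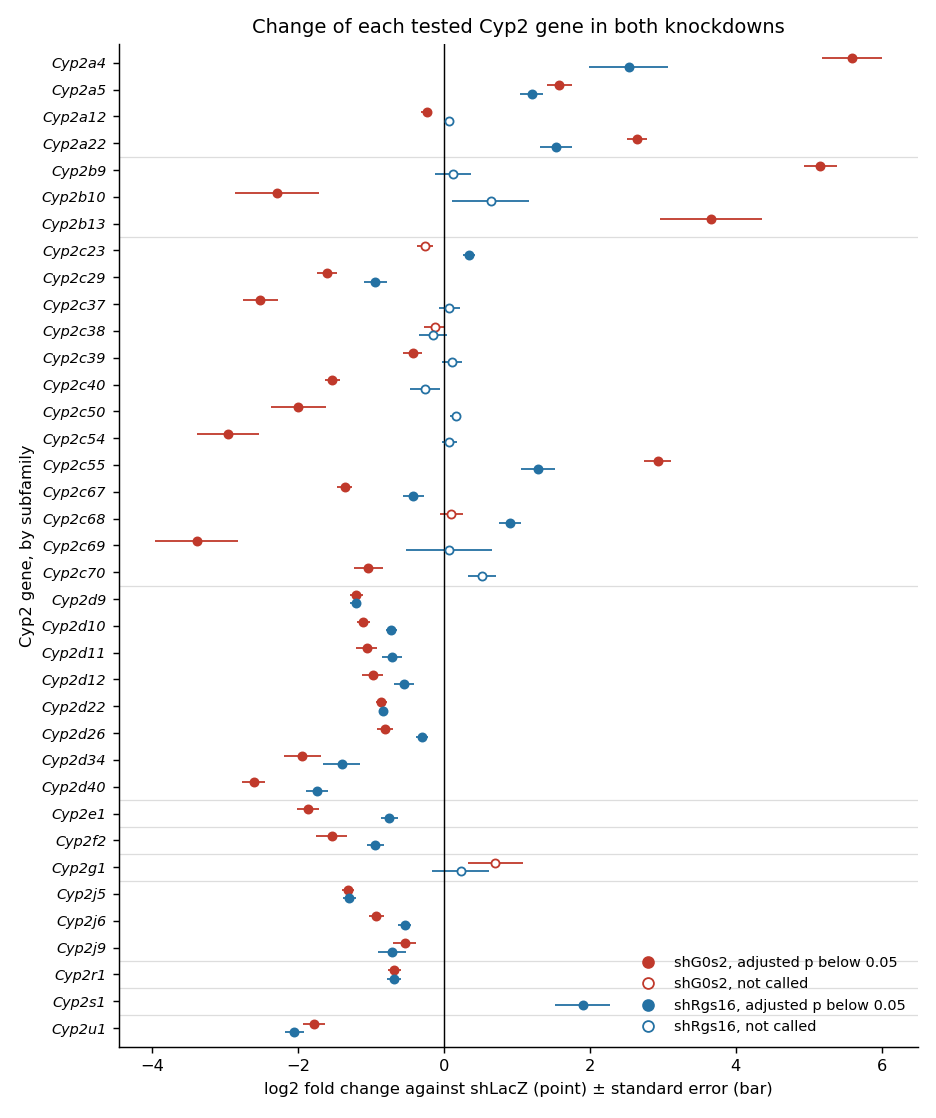
Log2 fold change against shLacZ (horizontal axis; point, with a bar of 1 standard error) of every tested Cyp2 gene (vertical axis, by subfamily) in shG0s2 (red) and shRgs16 (blue), 4 samples a group, with filled points for an edgeR adjusted p below 0.05. All 8 Cyp2d genes lie left of 0 in both knockdowns, although Cyp2d26 in shRgs16 turns to 0.16 with log2(TPM + 1), and Cyp2a4 and Cyp2b9 lie farthest right in shG0s2.

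Subfamily Cyp2a held the largest increase. Cyp2a4 encodes a testosterone hydroxylase that is more abundant in female than in male liver. Its TMM CPM was 5.49, 11, 12.8 and 6.40 in the shLacZ samples, 408, 362, 649 and 288 in shG0s2, and 41.3, 30.3, 104 and 31 in shRgs16. The lowest shG0s2 sample thus stood above the highest shRgs16 sample, and the lowest shRgs16 sample above the highest control. The log2 fold change was 5.59 (SE 0.415, edgeR adjusted p = 2.55e-05) in shG0s2, a 48.2-fold increase, and 2.53 (SE 0.544, adjusted p = 0.00862) in shRgs16. Without shRgs16 replicate 3, the highest of its group, the second value was 1.94. Cyp2a4 in shG0s2 exceeded Cyp2a4 in shRgs16 by 3.05 (SE 0.482, adjusted p = 7.36e-04), or by 3.64 without the same sample.

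Cyp2a5 encodes coumarin hydroxylase, which also oxidises nicotine and bilirubin. It stood at 710.0, 727, 964 and 497 TMM CPM in shLacZ, 2494, 1968, 2154 and 1971 in shG0s2, and 1604, 1743, 1708 and 1611 in shRgs16. Neither knockdown overlapped the control, with log2 fold changes of 1.58 (SE 0.174, edgeR adjusted p = 2.02e-05) and 1.20 (SE 0.163, adjusted p = 2.43e-04). Between the knockdowns Cyp2a5 differed by 0.37 (SE 0.149, adjusted p = 0.0637), which did not pass the threshold, and 7 of 21 alternatives called it. For Cyp2a22 the TMM CPM was 2.98, 4.01, 4.69 and 5.13 in shLacZ, 25.3, 29.5, 24.2 and 25.5 in shG0s2, and 12.8, 16.7, 11 and 8.59 in shRgs16, with no overlap. Its log2 fold changes were 2.64 (SE 0.138, adjusted p = 4.20e-08) and 1.54 (SE 0.220, adjusted p = 2.31e-04), and 1.09 between the knockdowns (adjusted p = 2.78e-04).

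Cyp2a12, a steroid hydroxylase gene, is the fourth member of the subfamily. Its TMM CPM was 445 to 495 in shLacZ, against 373 to 425 with shG0s2 and 462 to 516 with shRgs16. In shG0s2 it was called lower by TMM (log2 fold change -0.24, edgeR adjusted p = 0.00994) but higher on library size alone (0.25) and with log2(TPM + 1) (0.46), so its direction depends on the scaling. In shRgs16 its value was 0.07 (adjusted p = 0.392).

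Close copies limit how well reads can be assigned to single genes. The coding sequences of Cyp2a4 and Cyp2a5 in the GENCODE annotation differ at 23 of 1482 bases, an identity of 98.4%. Those of Cyp2a12 and Cyp2a22 are 97% identical. The estimated counts divide reads among such copies, so the split within each pair is uncertain. The similarity extends upstream, where 245 of 249 aligned bases before the RefSeq start sites of Cyp2a4 and Cyp2a5 are the same. Both sequences are shown, since genes with nearly the same promoter differed 48.2-fold against 2.99-fold in shG0s2. They cover the 250 bases before each start on the plus strand of GRCm38.p6, at chr7:26306942-26307191 and chr7:26835089-26835338. Capitals mark the C/EBP letters TTGCNNAA and the TATA box TATAAA.
Cyp2a4: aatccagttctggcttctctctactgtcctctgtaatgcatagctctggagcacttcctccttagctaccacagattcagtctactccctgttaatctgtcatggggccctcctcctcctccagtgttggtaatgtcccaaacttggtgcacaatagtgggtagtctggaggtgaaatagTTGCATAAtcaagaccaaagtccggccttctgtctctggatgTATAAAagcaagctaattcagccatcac
Cyp2a5: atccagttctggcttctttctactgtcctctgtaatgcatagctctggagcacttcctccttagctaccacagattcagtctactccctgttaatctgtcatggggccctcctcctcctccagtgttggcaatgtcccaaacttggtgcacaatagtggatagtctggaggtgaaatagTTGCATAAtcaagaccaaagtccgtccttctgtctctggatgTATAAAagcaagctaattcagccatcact
In Cyp2a4 the C/EBP match spans bases -70 to -63 and the TATA box -28 to -23, counted back from the start site, and in Cyp2a5 both lie 1 base farther upstream. The C/EBP letters occurred in 12 of the 40 members with a promoter in the RefSeq table and in 9.55% of all 27025 promoters, on either strand. TATAAA occurred in 18 of 40 members and in 13% of all promoters. A match of letters is a description and does not show binding.

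**Figure D3:**
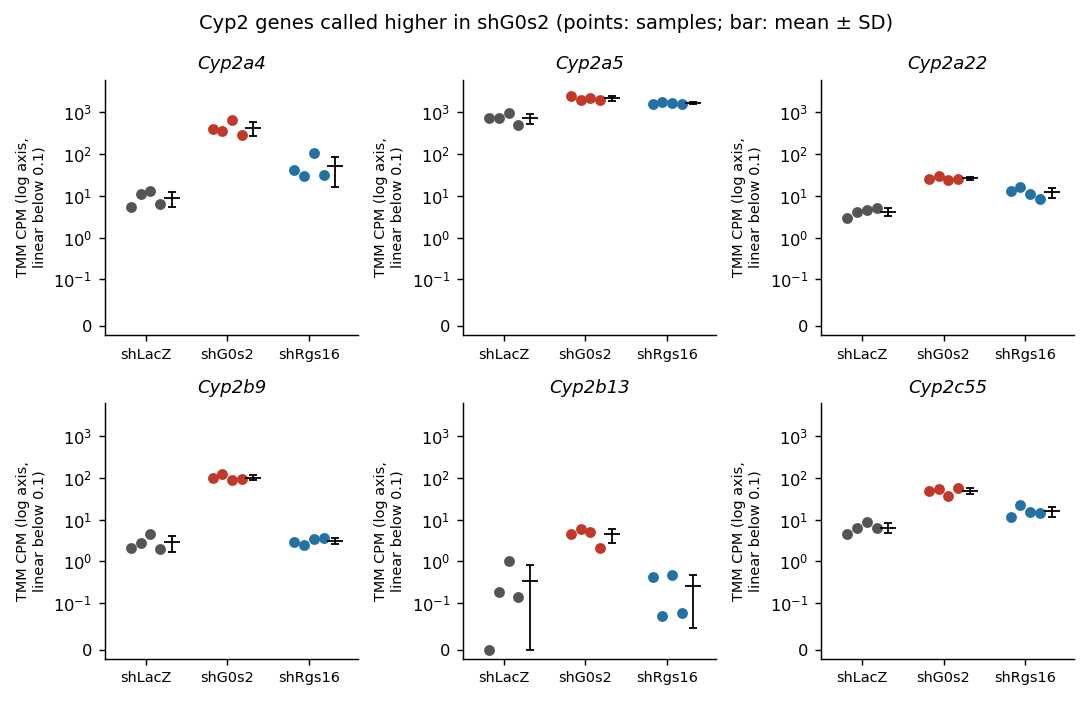
TMM CPM (vertical axis, logarithmic above 0.1 and linear below) of the 6 Cyp2 genes called higher in shG0s2, with each of the 4 samples a group as a point and the mean ± SD as a bar whose lower end stops at 0. In shG0s2 all 6 genes lie above every shLacZ sample, while Cyp2b9 in shRgs16 (2.44 to 3.58) overlaps shLacZ (1.98 to 4.47). Cyp2b13 passed the filter through shG0s2 alone, so its increase is a description with no test.

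Subfamily Cyp2b split in opposite directions. Cyp2b9 and Cyp2b13 are more abundant in female mouse liver, and Cyp2b10 is the classical gene induced through CAR. Cyp2b9 was at 2.14, 2.69, 4.47 and 1.98 TMM CPM in shLacZ, 97.8, 122, 88.5 and 94.6 in shG0s2, and 2.82, 2.44, 3.45 and 3.58 in shRgs16. The shG0s2 samples stood far above both other groups, which overlapped. Its log2 fold change was 5.16 (SE 0.228, edgeR adjusted p = 3.51e-07) in shG0s2, 0.12 (SE 0.25, adjusted p = 0.730) in shRgs16 and 5.04 (SE 0.206, adjusted p = 1.35e-08) between the knockdowns.

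Cyp2b13 was at 0, 0.189, 1.02 and 0.141 TMM CPM in shLacZ, 4.42, 6.01, 5.06 and 2.11 in shG0s2, and 0.428, 0.0727, 0.470 and 0.0796 in shRgs16. The filter kept Cyp2b13 through its shG0s2 samples alone, so its fitted log2 fold change of 3.66 in shG0s2 is a description with no test, and it was 5.27 without shLacZ replicate 3, the highest control. In shRgs16 against shLacZ it did not pass the filter. Cyp2b10 went the other way, with 34.9, 30.4, 64.3 and 8.75 TMM CPM in shLacZ, 8.4, 6.09, 7.87 and 5.67 in shG0s2, and 40.8, 50.5, 54.2 and 70.5 in shRgs16. The lowest control lay next to the highest shG0s2 sample. Its log2 fold change in shG0s2 was -2.29 (SE 0.571, edgeR adjusted p = 0.0116), which neither limma-voom (adjusted p = 0.0581) nor limma on log2(TPM + 1) (-1.14, adjusted p = 0.0848) called. In shRgs16 it was 0.64 (SE 0.531, adjusted p = 0.363), and shG0s2 lay below shRgs16 by -2.94 (SE 0.506, adjusted p = 0.00125). Cyp2b19 and Cyp2b23 had at most 0.104 TMM CPM in any sample.

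The promoters of these genes are shown because Cyp2b9 and Cyp2b13 were high and Cyp2b10 low in the same shG0s2 samples. Cyp2b9 and Cyp2b13 share 248 of 250 bases before the start site, an identity of 99.2%, and 92.7% of coding bases. Cyp2b9 and Cyp2b10 share 75.8% of aligned upstream bases. The windows lie on the plus strand of GRCm38.p6 at chr7:26173159-26173408, chr7:26061245-26061494 and chr7:25897408-25897657, and capitals mark the C/EBP letters TTGCNNAA.
Cyp2b9: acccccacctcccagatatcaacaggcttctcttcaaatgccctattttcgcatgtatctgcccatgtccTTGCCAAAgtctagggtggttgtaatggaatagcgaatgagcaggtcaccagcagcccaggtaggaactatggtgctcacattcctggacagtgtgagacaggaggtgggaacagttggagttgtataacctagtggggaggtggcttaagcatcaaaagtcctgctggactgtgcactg
Cyp2b13: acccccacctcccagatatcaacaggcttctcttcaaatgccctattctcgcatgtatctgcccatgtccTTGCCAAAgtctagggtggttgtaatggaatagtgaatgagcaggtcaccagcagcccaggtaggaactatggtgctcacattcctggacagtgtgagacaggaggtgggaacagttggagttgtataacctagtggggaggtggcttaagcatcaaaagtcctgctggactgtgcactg
Cyp2b10: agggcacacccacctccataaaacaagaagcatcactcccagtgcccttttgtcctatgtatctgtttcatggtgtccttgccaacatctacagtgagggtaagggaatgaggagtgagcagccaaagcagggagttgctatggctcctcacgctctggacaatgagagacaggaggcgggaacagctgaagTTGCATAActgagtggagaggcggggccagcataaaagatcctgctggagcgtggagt
The C/EBP match lies at -180 to -173 in Cyp2b9 and Cyp2b13 and at -58 to -51 in Cyp2b10. The nuclear receptor half-site AGGTCA occurred at -138 to -133 in Cyp2b9 and Cyp2b13, in 9 of 40 members and in 13.8% of all promoters, and the STAT5 letters TTCNNNGAA in 2 of 40 members (Cyp2j11 and Cyp2j12) and 7.18% of promoters.

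Subfamily Cyp2c responded differently to the knockdowns. Of 13 Cyp2c genes tested, 1 was higher and 9 lower in shG0s2, with a median of -1.36. In shRgs16, 3 were higher and 2 lower, with a median of 0.07. Over all genes tested, 31.3% were higher and 29.2% lower in shG0s2, and 24.6% and 24.5% in shRgs16. Between the knockdowns 1 was higher and 11 lower in shG0s2, beside 21.0% and 20.5% of all genes. Many of these genes encode epoxygenases and hydroxylases of arachidonic and linoleic acid. Cyp2c37, Cyp2c50 and Cyp2c54 lie side by side on chromosome 19 and are 95.1% to 96.1% identical in coding sequence. Cyp2c37 was at 209.6, 280.2, 301 and 296 TMM CPM in shLacZ, 67.3, 31.5, 43.6 and 46.2 in shG0s2, and 238, 255, 301 and 345 in shRgs16. Cyp2c50 was at 274, 288, 311 and 341, then 87.7, 29.2, 109 and 76.4, then 339, 320.2, 342 and 355 TMM CPM. For Cyp2c54 the TMM CPM was 81.4, 98.6, 98.2 and 99.8, then 12.5, 4.05, 20.8 and 10.5, then 91.1, 85.3, 119 and 101. In each of the 3 genes shG0s2 lay below every other sample and, as TMM CPM, shRgs16 overlapped the control. As deposited TPM, shRgs16 lay above every control in all 3. The ranges were 194 to 277 against 125 to 192 for Cyp2c37 and 282 to 298 against 171 to 208 for Cyp2c50. For Cyp2c54 they were 75.8 to 96.8 against 50.1 to 65.8.

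The log2 fold changes in shG0s2 were -2.52 (SE 0.240, edgeR adjusted p = 5.44e-05) for Cyp2c37, -2.0 (SE 0.378, adjusted p = 0.00332) for Cyp2c50 and -2.96 (SE 0.421, adjusted p = 8.21e-04) for Cyp2c54. In shRgs16 they were 0.07 (adjusted p = 0.733), 0.16 (adjusted p = 0.0947) and 0.07 (adjusted p = 0.625). The direct comparison of shG0s2 with shRgs16 gave -2.59, -2.17 and -3.03, with adjusted p of 9.01e-06, 3.81e-04 and 1.16e-04. Library size alone called Cyp2c50 and Cyp2c54 higher in shRgs16, at 0.46 and 0.36.

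Cyp2c55 was the exception in the subfamily and encodes an arachidonate hydroxylase induced through CAR and PXR. It was at 4.61, 6.23, 8.53 and 6.40 TMM CPM in shLacZ, 49.1, 54.2, 37.3 and 55.6 in shG0s2, and 11.6, 22.2, 15.2 and 14.2 in shRgs16. The 3 groups did not overlap. Its log2 fold changes were 2.93 (SE 0.187, edgeR adjusted p = 1.31e-06) and 1.29 (SE 0.230, adjusted p = 0.00148), and 1.64 (adjusted p = 9.70e-05) between the knockdowns. Cyp2c29, a pericentral gene that CAR also induces, fell in both. It was at 779, 893, 639 and 943 TMM CPM in shLacZ, 259, 216, 285 and 304 in shG0s2, and 345, 376, 534 and 448 in shRgs16, with log2 fold changes of -1.60 (SE 0.138, adjusted p = 2.77e-06) and -0.94 (SE 0.159, adjusted p = 0.00110).

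**Figure D4:**
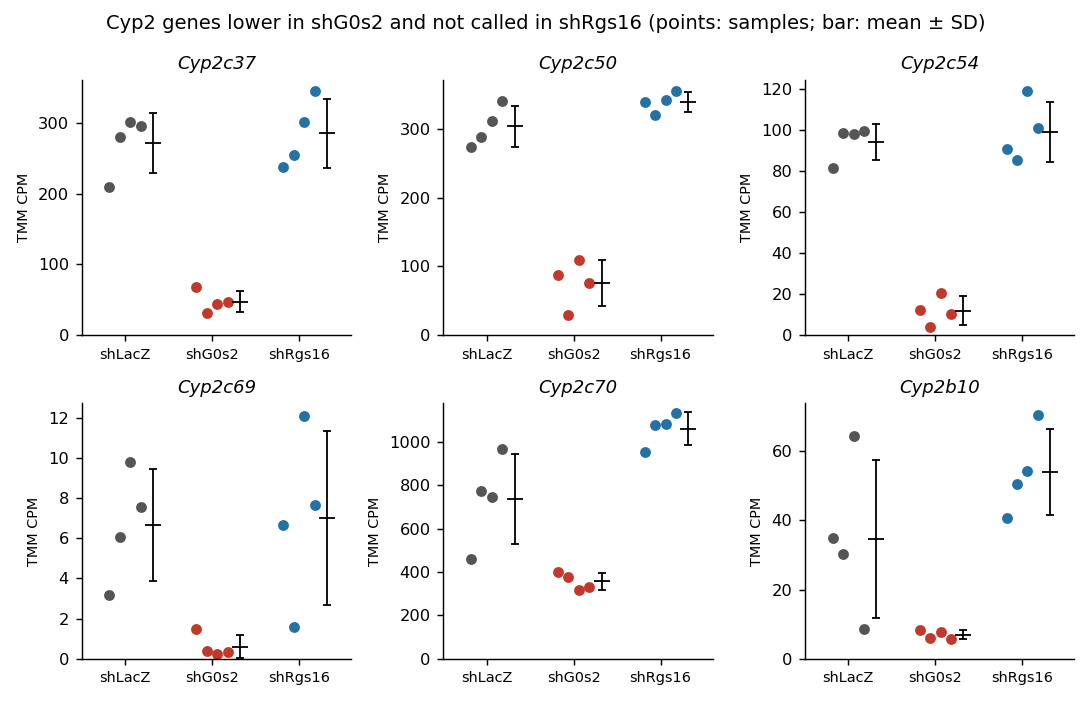
TMM CPM (vertical axis, linear, from 0) of 6 Cyp2 genes that were lower in shG0s2 and not called in shRgs16, with each of the 4 samples a group as a point and the mean ± SD as a bar. In Cyp2c37, Cyp2c50 and Cyp2c54 the shG0s2 points (at most 109) lie under the others of their gene, while in Cyp2b10 the lowest control (8.75) lies next to the highest shG0s2 sample (8.4). Cyp2c69 passed the filter through shLacZ alone, so its decrease in shG0s2 is a description with no test.

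A second block of Cyp2c genes consists of near copies. Cyp2c40, Cyp2c67, Cyp2c68 and Cyp2c69 are 96.5% to 98.1% identical in coding sequence, so the split of reads among them is uncertain. Cyp2c40, which is more abundant in female liver, was at 105, 122, 155 and 128 TMM CPM in shLacZ, 41.4, 43.8, 43.4 and 46.8 in shG0s2, and 94.6, 74.9, 145 and 113 in shRgs16. Its log2 fold change was -1.53 (SE 0.104, edgeR adjusted p = 4.32e-07) in shG0s2 and -0.26 (SE 0.210, adjusted p = 0.349) in shRgs16. In shRgs16, log2(TPM + 1) called Cyp2c40 higher (0.54, limma adjusted p = 0.0236) and a replicate block called it lower. Its direction there thus depends on the processing. Cyp2c69 was at 3.16, 6.04, 9.81 and 7.53 TMM CPM in shLacZ, 1.47, 0.392, 0.243 and 0.327 in shG0s2, and 6.67, 1.60, 12.1 and 7.64 in shRgs16, so its shG0s2 samples lay below all others. Since it passed the filter through shLacZ alone, its fitted change of -3.39 in shG0s2 is a description, which became -4.36 without shG0s2 replicate 1 and -1.71 with log2(TPM + 1). In shRgs16 the value was 0.07 (SE 0.585, adjusted p = 0.936).

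Cyp2c68, the closest copy of Cyp2c40, was at 84.3, 108, 108 and 143 TMM CPM in shLacZ, 141, 109, 104 and 116 in shG0s2, and 187, 194, 238 and 207 in shRgs16. As TMM CPM, only the shRgs16 samples stood clear of the control. Their log2 fold change was 0.90 (SE 0.151, edgeR adjusted p = 0.00122), beside 0.10 (SE 0.16, adjusted p = 0.632) in shG0s2. With deposited TPM the shG0s2 samples stood clear too, the lowest at 105 against a highest control of 89.4. Whether shG0s2 separates from the control for Cyp2c68 thus depends on the measure. Cyp2c67 was lower in shG0s2 (-1.36, adjusted p = 5.26e-07). In shRgs16 its value of -0.42 (adjusted p = 0.0312) was lost in 8 of 17 alternatives, 5 of them with 1 sample left out.

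Cyp2c70, which makes the muricholic acids of mouse bile, was at 462, 774, 747 and 965 TMM CPM in shLacZ, 399, 378, 318 and 333 in shG0s2, and 952, 1076, 1081 and 1131 in shRgs16. It fell in shG0s2 by 1.04 on the log2 scale (SE 0.199, edgeR adjusted p = 0.00173), although log2(TPM + 1) gave -0.30 (adjusted p = 0.227). In shRgs16 the value was 0.52 (SE 0.193, adjusted p = 0.0512), at the edge of the threshold, and 8 of 17 alternatives called it higher. The knockdowns differed by -1.57 (SE 0.174, adjusted p = 1.77e-05). Cyp2c23, a further arachidonate epoxygenase gene, was at 196, 201, 204 and 165 TMM CPM in shLacZ, 157, 128, 190.2 and 159.9 in shG0s2, and 229, 225, 278 and 239 in shRgs16. It was higher in shRgs16 (0.34, SE 0.0835, adjusted p = 0.00531) and not called in shG0s2 (-0.26, adjusted p = 0.0651). In shG0s2, log2(TPM + 1) called Cyp2c23 higher (0.43, limma adjusted p = 0.00376) and a replicate block called it lower.

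Cyp2c39, a low-level retinoic acid hydroxylase gene, was at 5.44, 5.0, 5.35 and 5.55 TMM CPM in shLacZ, 4.35, 3.52, 4.20 and 3.60 in shG0s2, and 4.82, 5.49, 5.79 and 6.96 in shRgs16. It was called lower in shG0s2 (-0.43, SE 0.126, edgeR adjusted p = 0.0103), which library size alone turned to 0.05 and log2(TPM + 1) to 0.20. Cyp2c38 was called in no comparison by TMM, with values of -0.13 and -0.15 against shLacZ. Its mean deposited TPM, however, was 28.5 for shLacZ, 48.6 for shG0s2 and 49.0 for shRgs16. The highest control, at 32.3 TPM, lay below the lowest sample of either knockdown, at 40.5 TPM. The direction of Cyp2c38 thus depends on the measure. Cyp2c65 and Cyp2c66 had at most 0.535 TMM CPM in any sample and were not tested.

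A stretch upstream of several Cyp2c genes is shown since these letters were rare among all promoters and recurred in this subfamily. The HNF4 letters CAAAGTCCA occurred in 6 of the 40 member promoters, all of them Cyp2c genes, and in 0.381% of all 27025 promoters, on either strand. Each line gives 60 bases of GRCm38.p6 around the match on the gene's own strand. The windows are chr19:39812825-39812884, chr19:39649133-39649192, chr19:39741144-39741203, chr19:39886810-39886869, chr19:40187316-40187375 (all minus strand) and chr19:39060865-39060924 (plus strand), in the order of the lines, and capitals mark the HNF4 letters.
Cyp2c40: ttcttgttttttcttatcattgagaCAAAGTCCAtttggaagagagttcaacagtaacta
Cyp2c67: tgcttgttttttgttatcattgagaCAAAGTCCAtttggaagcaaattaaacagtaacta
Cyp2c68: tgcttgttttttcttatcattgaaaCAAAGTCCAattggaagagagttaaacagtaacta
Cyp2c69: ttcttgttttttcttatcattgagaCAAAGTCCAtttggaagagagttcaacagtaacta
Cyp2c70: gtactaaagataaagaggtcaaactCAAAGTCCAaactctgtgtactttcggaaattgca
Cyp2c65: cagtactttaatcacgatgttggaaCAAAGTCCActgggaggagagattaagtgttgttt
In shG0s2, 4 of these genes were lower (Cyp2c40, Cyp2c67, Cyp2c69 and Cyp2c70), Cyp2c68 was not called and Cyp2c65 was not tested. Beside this, 69.2% of all tested Cyp2c genes, 72.2% of all tested members and 29.2% of all genes were lower. Cyp2c40, Cyp2c67, Cyp2c68 and Cyp2c69 are near copies, and Cyp2c69 passed the filter through shLacZ alone. Whether the letters bear on these changes was not tested. The matches lie at -45 to -37 in Cyp2c40, -77 to -69 in Cyp2c68 and -75 to -67 in Cyp2c69. Of these, Cyp2c68 alone was called higher in shRgs16.

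Subfamily Cyp2d was lower throughout. All 8 members were called lower in both knockdowns, with medians of -1.08 and -0.77 and no overlap with the control in any of them. With log2(TPM + 1), Cyp2d11, Cyp2d12 and Cyp2d26 were no longer called in either knockdown, nor Cyp2d22 in shG0s2 and Cyp2d10 in shRgs16, and Cyp2d26 in shRgs16 turned to 0.16 (limma adjusted p = 0.0969). Library size alone lost Cyp2d12 and Cyp2d26 in shRgs16. Cyp2d9, a testosterone hydroxylase gene that is more abundant in males, was at 2159.6, 2263, 2175 and 2216 TMM CPM in shLacZ, 1036, 839, 1016 and 908 in shG0s2, and 987, 901, 1031 and 898 in shRgs16. The knockdowns overlapped each other well below the control, with log2 fold changes of -1.20 (SE 0.0907, edgeR adjusted p = 4.80e-07) and -1.21 (SE 0.0724, adjusted p = 5.07e-07). The difference between them was -0.01 (SE 0.0818, adjusted p = 0.954) by TMM. Cyp2d9 was called higher in shG0s2 than in shRgs16 on library size alone (0.19, edgeR adjusted p = 0.0275). The same held with log2(TPM + 1) (0.16, limma adjusted p = 0.0221). Over all genes these alternatives called 37.8% and 42.0% higher.

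Cyp2d40 changed most in this subfamily. It was at 101, 89.4, 69.1 and 71.3 TMM CPM in shLacZ, 12.8, 11.1, 16.2 and 13.8 in shG0s2, and 26, 19.3, 27.7 and 26.1 in shRgs16, so the 3 groups did not overlap. The log2 fold changes were -2.61 (SE 0.156, edgeR adjusted p = 7.68e-07) and -1.74 (SE 0.153, adjusted p = 2.69e-05). Cyp2d34 was at 30.7, 29.0, 47.2 and 26, then 10.9, 9.05, 8.81 and 5.56, then 15.3, 14.7, 12.4 and 8.00 TMM CPM, with changes of -1.94 (adjusted p = 2.15e-04) and -1.40 (adjusted p = 0.00282). Cyp2d10 was at 717, 833, 755 and 828, then 378, 318, 401 and 347, then 481, 425, 528 and 466 TMM CPM. Its values were -1.11 (adjusted p = 7.98e-07) and -0.72 (adjusted p = 2.43e-05).

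Cyp2d22 was at 236, 247, 247 and 232 TMM CPM in shLacZ, 148, 117, 129.9 and 131 in shG0s2, and 132, 133, 152 and 126 in shRgs16. Its changes of -0.86 (edgeR adjusted p = 1.01e-06) and -0.83 (adjusted p = 2.05e-06) left the knockdowns overlapping each other, with a difference of -0.05 (adjusted p = 0.632). Cyp2d26 was at 726, 739, 620.0 and 599, then 414, 307, 416 and 381, then 523, 540.2, 597 and 522 TMM CPM, with changes of -0.81 (adjusted p = 4.30e-05) and -0.30 (adjusted p = 0.0100). Cyp2d11 and Cyp2d12 had changes of -1.06 and -0.98 in shG0s2 and -0.71 and -0.55 in shRgs16. By TMM, Cyp2d9, Cyp2d22 and Cyp2d34 were not called between the knockdowns. The other 5 of the 8 genes were lower in shG0s2, beside 20.5% of all genes. Of these 5, Cyp2d11 (-0.36, adjusted p = 0.0414) was lost in 7 of 21 alternatives, 4 of them with 1 sample left out, and Cyp2d12 in 2 of 21.

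Cyp2e1 was at 5975, 5537, 5351 and 4961 TMM CPM in shLacZ, 1711, 1052, 1454 and 1722 in shG0s2, and 3245, 2575, 3848 and 3299 in shRgs16. The 3 groups stood apart with shG0s2 lowest. Its log2 fold change was -1.87 (SE 0.150, edgeR adjusted p = 7.74e-07) in shG0s2, a 3.65-fold decrease, and -0.75 (SE 0.114, adjusted p = 2.13e-04) in shRgs16, a 1.69-fold decrease. The knockdowns differed by -1.13 (SE 0.149, adjusted p = 2.93e-05). Cyp2f2, which activates naphthalene, was at 1417, 1644, 1469 and 1656 TMM CPM in shLacZ, 443, 456, 808 and 404 in shG0s2, and 926, 810.0, 879 and 615 in shRgs16. Both knockdowns lay below the control, at -1.54 (SE 0.213, adjusted p = 2.09e-04) and -0.94 (SE 0.117, adjusted p = 5.83e-05). They overlapped each other through shG0s2 replicate 3. The difference of -0.61 (SE 0.203, adjusted p = 0.0295) between them was lost in 10 of 21 alternatives, with adjusted p of 0.0548 to 0.114.

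In subfamily Cyp2j, 3 of 8 genes were tested, and by TMM all 3 were lower in both knockdowns. Over all genes tested, 29.2% were lower in shG0s2 and 24.5% in shRgs16. Cyp2j5, an arachidonate epoxygenase gene of liver and kidney, was at 633, 702, 619 and 738 TMM CPM in shLacZ, 272, 248, 294 and 257 in shG0s2, and 273, 238, 306 and 277 in shRgs16. The knockdowns overlapped each other, with log2 fold changes of -1.32 (SE 0.0840, edgeR adjusted p = 1.51e-07) and -1.30 (SE 0.0868, adjusted p = 8.98e-07). The difference between them was -0.03 (SE 0.0844, adjusted p = 0.809) by TMM. Cyp2j5 was called higher in shG0s2 than in shRgs16 on library size alone (0.17, edgeR adjusted p = 0.0442). The same held with log2(TPM + 1) (0.31, limma adjusted p = 8.23e-04). Over all genes these alternatives called 37.8% and 42.0% higher. Cyp2j6 fell by 0.93 and 0.54 on the log2 scale. Cyp2j9 had changes of -0.54 and -0.71, and its shRgs16 samples overlapped the control. Library size alone and log2(TPM + 1) both lost the calls of Cyp2j9 in each knockdown, and the latter turned it to 0.09 in shG0s2. The Cyp2j6 call was lost with log2(TPM + 1) in shG0s2 (limma adjusted p = 0.0652) and under both alternatives in shRgs16 (adjusted p up to 0.457). The other 5 genes had at most 0.0944 TMM CPM in any sample, and Cyp2j7, Cyp2j11 and Cyp2j12 had no count in the 12 samples.

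Among the single-gene subfamilies, Cyp2u1 and Cyp2r1 were lower in both knockdowns by TMM. Cyp2u1, which hydroxylates long-chain fatty acids, was at 33.7, 41.5, 37.9 and 32.7 TMM CPM in shLacZ, 7.80, 9.44, 12.4 and 12.4 in shG0s2, and 10.3, 7.93, 10 and 6.84 in shRgs16. This was the largest decrease of the family in shRgs16, at -2.05 (SE 0.129, edgeR adjusted p = 1.14e-06), beside -1.78 (SE 0.147, adjusted p = 2.79e-06) in shG0s2. Cyp2r1, a hydroxylase that activates vitamin D, had changes of -0.68 (adjusted p = 4.45e-05) and -0.68 (adjusted p = 1.16e-04). Library size alone and log2(TPM + 1) both lost its call in shG0s2, the latter with a value of 0.05 (limma adjusted p = 0.565). In shRgs16, log2(TPM + 1) lost its call (limma adjusted p = 0.0600). Its mean deposited TPM was 11.3 in shLacZ, 11.7 in shG0s2 and 9.65 in shRgs16. Cyp2s1, a gene mostly expressed outside the liver, passed the filter in shRgs16 against shLacZ, through its shRgs16 samples alone, but not in shG0s2 against shLacZ. It was at 0.0931, 0.283, 0.354 and 0.471 TMM CPM in shLacZ, 0.335, 0.740, 0.728 and 0.8 in shG0s2, and 1.07, 1.45, 1.17 and 0.835 in shRgs16, a fitted change of 1.9 in shRgs16 against shLacZ, which is a description with no test. Cyp2g1, an olfactory gene, had values of 0.70 (adjusted p = 0.130) and 0.23 (adjusted p = 0.657). Cyp2t4 had at most 0.0870 TMM CPM, and Cyp2w1 had no count.

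The members lie in a few clusters, and neighbours did not all move alike. On chromosome 7, 13 members of 6 subfamilies lie between 25802475 and 27158668 (GRCm38). The 5 members called higher in shG0s2 there, Cyp2b13, Cyp2b9, Cyp2a4, Cyp2a5 and Cyp2a22, lie between Cyp2b10 on one side and Cyp2a12 and Cyp2f2 on the other, all 3 of which were lower by TMM, Cyp2a12 higher on library size alone. Cyp2b23, Cyp2b19 and Cyp2g1 lie among the 5 without a call. Cyp2b13 passed the filter through shG0s2 alone, so its increase is a description with no test. On chromosome 19, 14 Cyp2c genes lie between 39007019 and 40187333. Cyp2c55 opens that cluster and was higher, and the last 5 genes, Cyp2c69, Cyp2c37, Cyp2c54, Cyp2c50 and Cyp2c70, were all lower in shG0s2 and not called in shRgs16. Of the last 5, Cyp2c69 passed the filter through shLacZ alone, so its decrease in shG0s2 is a description with no test. The 8 Cyp2d genes lie within 424 kb of chromosome 15 and the 8 Cyp2j genes within 637 kb of chromosome 4.

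**Figure D5:**
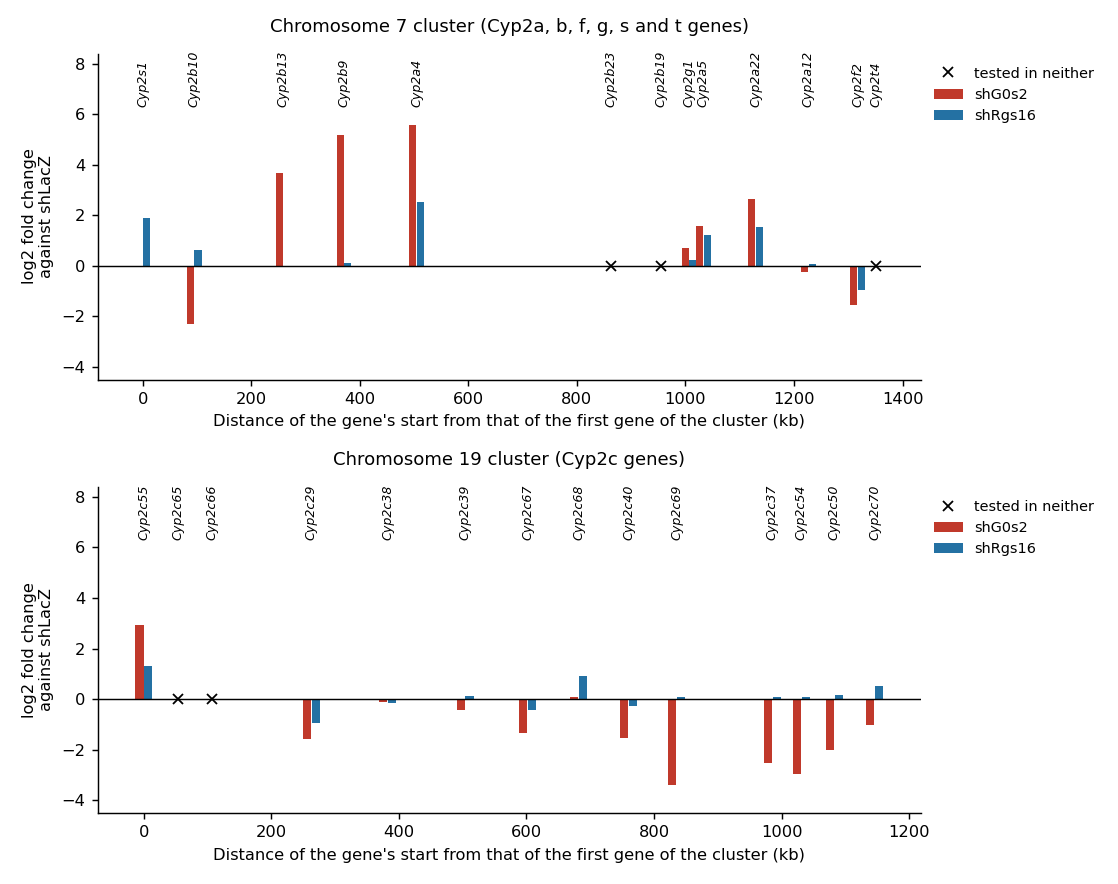
Log2 fold change against shLacZ (vertical axis, bars from 0) in shG0s2 (red) and shRgs16 (blue) of the Cyp2 genes in the clusters of chromosome 7 (13 genes) and chromosome 19 (14 genes), at the distance in kb of each gene's start from that of the first gene. Crosses mark genes tested in neither, and Cyp2s1 in shG0s2 and Cyp2b13 in shRgs16 have no bar because they were not tested. Increases of 3.66, 5.16 and 5.59 stand next to each other at Cyp2b13, Cyp2b9 and Cyp2a4, and the last 5 genes of the Cyp2c cluster go down in shG0s2. The shG0s2 bars of Cyp2b13 and Cyp2c69 are descriptions with no test, since each gene passed the filter through 1 group alone.

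Members known to be higher in female liver did not share a direction. Of 6 such genes tested in shG0s2, 3 were higher (Cyp2a4, Cyp2b9 and Cyp2b13) and 3 lower (Cyp2c39, Cyp2c40 and Cyp2c69), with a median of 1.61. Cyp2b13 and Cyp2c69 are among those that passed the filter through 1 group alone. With library size alone Cyp2c39 was no longer called. In shRgs16, 1 of 5 was higher and the median was 0.11, but on library size alone 2 of 5 were higher, with a median of 0.40. Over all genes tested, 31.3% were higher and 29.2% lower in shG0s2, and 24.6% and 24.5% in shRgs16. On library size alone these shares were 64.6% and 7.99%, and 50.2% and 8.35%. Members known to be induced through CAR also split, with 2 of 7 higher (Cyp2a5 and Cyp2c55) and 5 lower in shG0s2, median -2.0. In shRgs16, 2 were higher and 1 lower (Cyp2c29), median 0.16. On library size alone the counts were 2 higher and 5 lower in shG0s2 (median -1.53). In shRgs16 that scaling gave 4 higher and 1 lower (median 0.46). Nr1i3, the gene of CAR itself, was lower in both knockdowns, at 199.9 TMM CPM in shLacZ, 107 in shG0s2 (log2 fold change -0.90, edgeR adjusted p = 0.00137) and 145 in shRgs16 (-0.46, adjusted p = 0.00201, but -0.16 with adjusted p = 0.122 on library size alone). Nr1i2 was lower in shG0s2 (-0.37, adjusted p = 0.00310, but 0.12 on library size alone) and not called in shRgs16 (-0.08, adjusted p = 0.381), and Ahr was called in neither (0.15 and -0.34).

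Genes that act with or upstream of the family were counted from lists. The shares over all genes tested, for comparison with every list below, were 31.3% higher and 29.2% lower in shG0s2. In shRgs16 they were 24.6% and 24.5%. On library size alone they were 64.6% and 7.99% in shG0s2 and 50.2% and 8.35% in shRgs16, with medians of 0.50 and 0.31. Among 18 receptors and cofactors, 2 were higher and 12 lower in shG0s2 (median -0.39), and 2 and 8 in shRgs16 (median -0.12). On library size alone the counts were 7 higher and 2 lower in each knockdown, with medians of 0.10 and 0.18. Rxra, the partner of these receptors, changed by -0.53 (-0.05 on library size alone, adjusted p = 0.502) and -0.66, Nr1h4 by -0.48 in shG0s2 (0.01 on library size alone) and Ppara by -0.56 in shRgs16. Of 15 hepatocyte transcription factors, 9 were lower in shG0s2 (median -0.45) and 7 in shRgs16 (median -0.36), and the rest were not called. Library size alone gave 3 higher and 3 lower in shG0s2, and 2 and 3 in shRgs16. Hnf4a, which activates many P450 genes, was at 1016 TMM CPM in shLacZ, 519 in shG0s2 (-0.96, edgeR adjusted p = 8.40e-07) and 739 in shRgs16 (-0.46, adjusted p = 9.56e-04, but -0.16 with adjusted p = 0.0762 on library size alone). Foxa3 changed by -0.67 in shG0s2 (-0.18 on library size alone, adjusted p = 0.0571), and Hlf by -0.79 in shRgs16.

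Growth hormone signalling genes were 2 higher and 5 lower of 15 in shG0s2 (median -0.38) and 2 higher and 1 lower in shRgs16 (median -0.06), with medians of 0.11 and 0.24 on library size alone. Ghr, the growth hormone receptor gene, was lower in both, at -1.04 (edgeR adjusted p = 7.85e-08) and -0.98 (adjusted p = 5.26e-06). Igf1 changed by -0.91 in shG0s2 and Socs3 by 0.84 in shRgs16. Stat5b was lower in shG0s2 (-0.32, adjusted p = 5.95e-04, but 0.17 on library size alone) and not called in shRgs16 (-0.06, adjusted p = 0.426).

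Targets of CAR and PXR outside the family were 11 higher and 6 lower of 21 in shG0s2 (median 0.78) and 10 higher and 6 lower in shRgs16 (median 0.15), or 15 and 2 (median 1.26), and 12 and 2 (median 0.44), on library size alone. Gstm1, a glutathione transferase gene, rose in both, at 2.72 (edgeR adjusted p = 2.78e-08) and 2.22 (adjusted p = 1.59e-07). Abcc4, an efflux pump gene, rose by 3.45 in shG0s2, and Ugt1a1, the bilirubin glucuronidation gene, changed by -1.07 in shRgs16. Partner enzymes of phase 1 and arachidonate metabolism were 7 higher and 2 lower of 13 in shG0s2 (median 0.54) and 9 higher and 1 lower of 12 in shRgs16 (median 0.59), with medians of 1.03 and 0.89 on library size alone. Ephx1, which opens epoxides of foreign compounds, changed by 0.61 in shG0s2, Ephx2, which opens fatty acid epoxides, by -0.77 in shG0s2, and Fmo2, a flavin monooxygenase gene, by 1.06 in shRgs16.

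Genes of electron transfer and haem supply were 2 higher and 8 lower of 16 in shG0s2 (median -0.19) and 2 higher and 9 lower in shRgs16 (median -0.28), but 11 higher and 2 lower, and 6 and 4, on library size alone. Por, the reductase that feeds all these enzymes, was lower in shG0s2 (-0.44, edgeR adjusted p = 0.0167, but 0.05 on library size alone) and not called in shRgs16 (0.16, adjusted p = 0.110). Alas1, the first enzyme of haem synthesis, was called in neither (0.33 and -0.19). Hmox1, which degrades haem, rose in both (1.39 and 1.25), and Cpox, a later haem synthesis gene, changed by -0.69 and -0.68.

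Genes of the lobule's zones were counted as a background for Cyp2e1 and Cyp2f2. Pericentral genes outside the family were 4 higher and 5 lower of 17 in shG0s2 (median -0.20) and 4 higher and 2 lower in shRgs16 (median 0.07). Periportal genes were 2 higher and 10 lower of 14 (median -0.77), and 2 higher and 3 lower (median -0.10). On library size alone the pericentral medians were 0.30 and 0.37, and the periportal ones -0.28 and 0.21. Glul, the pericentral glutamine synthetase gene, changed by -1.02 in shG0s2 and Aldh3a2 by 0.86, and Rhbg and Lgr5 by 0.81 and -0.85 in shRgs16. The periportal gene Gls2 changed by -1.35 in shG0s2, Cyp8b1 by -1.16 in shRgs16 and Hsd17b13 by 0.46 and 0.45. Acute phase and inflammatory genes were 2 higher and 8 lower of 14 in shG0s2 (median -0.60) and 3 higher and 2 lower in shRgs16 (median 0.02), and 5 and 5, and 5 and 2, on library size alone. Crp changed by -1.22 and -0.90, and Nfkb1 by 0.38 and 0.34.

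The authors' deposited table marked 24 members as significant for shG0s2, 6 up and 18 down, and 10 for shRgs16, 5 up and 5 down. All of them were also called here. The smallest absolute log2 fold change marked in the authors' deposited table was 1.05 for shG0s2 and 1.19 for shRgs16.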

How the data were processed

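RNA of 12 liver samples was sequenced after DNase treatment and Ribo-zero depletion of ribosomal RNA, per the labels' protocols. Tools listed in the submitters' processing notes were Bowtie2 2.2.9, fastp 0.19.5, GATK 3.8, SAMtools 1.9 and DESeq2. Neither counter, strand setting nor genome build is given in the sources used here. The authors deposited an estimated count and a TPM value for each gene and sample, in which 5789 to 6625 counts per sample were not whole numbers. They also deposited a fold ratio, a log2 fold change and a p-value for each knockdown, and the shLacZ values were the same in both tables (0 differences over 8 columns).

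Estimated counts were rounded and tested with edgeR 4.0.16 (R 4.3.3): filterByExpr, TMM scaling, a robust quasi-likelihood test, and Benjamini-Hochberg adjustment over all genes tested, with calls at 0.05. Each knockdown was compared with shLacZ on 8 samples, and the knockdowns with each other in a model of 12. Library totals of 18458222 to 27170419 limit the precision of members with few counts. Alternatives were DESeq2 1.42.0, limma 3.58.1 (voom, and log2 of the deposited TPM with a pseudocount of 1), other scalings, filters and sample sets, a replicate block, and leaving out each sample.

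The members and gene lists were chosen with earlier results of these data known, so no list count is independent support. Values in every sample are given for up to 8 members with the largest change in each direction and knockdown, among those past the threshold with a mean of at least 1 CPM, for the 8 with the highest TPM in shLacZ, and for the tested members of the female-biased and CAR lists. The rest are given by subfamily, and per-sample values of Cyp2s1 were added after they were seen. Of the listed genes outside the family, the 2 with the smallest p per list and comparison are named beside Nr1i3, Nr1i2, Ahr, Hnf4a, Stat5b, Por and Alas1, except for items not reported here. The promoters of Cyp2a5, Cyp2b13 and Cyp2b10 and the HNF4 windows were chosen after values were seen. Coordinates and coding sequences are from GENCODE on GRCm38, which matched 55450 of 55536 genes by identifier and symbol, and promoters are from RefSeq on GRCm38.p6 (40 of 48 members matched). The edgeR fit of shG0s2 against shLacZ was run on simulated counts with few genes changed, balanced in direction. That simulation does not bear on how the results depend on scaling.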

Additional observations from a re-analysis of the deposited data

Results flagged for a closer look

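In 6 of 111 groups of 4 samples, over the 37 members tested in at least 1 comparison, 1 sample lay so far from the other 3 that its gap to the nearest exceeded Dixon's critical share of the group's range for 4 samples. Chance alone gives about 1 such group in 20. Cyp2a4 had 104 TMM CPM in shRgs16 replicate 3, beside 30.3 to 41.3 in the other shRgs16 samples. Cyp2c38 had 181 in shG0s2 replicate 2, beside 173 to 174. Cyp2c54 had 81.4 in shLacZ replicate 1, beside 98.2 to 99.8. Cyp2c69 had 1.47 in shG0s2 replicate 1, beside 0.243 to 0.392. Cyp2f2 had 808 in shG0s2 replicate 3, beside 404 to 456. Cyp2s1 had 0.335 in shG0s2 replicate 1, beside 0.728 to 0.8.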

How the results depend on the processing

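The counts of members called moved most with the scaling on library size alone and with limma on log2(TPM + 1), which changes the measure and the test as well. On library size alone, the counts of higher members went from 6 to 10 in shG0s2 against shLacZ, from 7 to 12 in shRgs16 against shLacZ and from 5 to 9 between the knockdowns. By limma on log2(TPM + 1) the higher members were 11, 15 and 11, and the lower members fell from 26 to 15 in shG0s2 and from 17 to 9 in shRgs16. The ratio of summed TPM of 0.867 in shG0s2 became 0.538 as TMM-scaled CPM and 0.758 on library size alone, and 1.01 in shRgs16 became 0.740 and 0.909. Leaving out 1 sample gave 6 to 7 higher and 26 to 27 lower members in shG0s2, 7 to 9 and 16 to 17 in shRgs16, 5 to 6 and 19 to 22 between the knockdowns, and ratios of 0.849 to 0.889 and 0.984 to 1.02.

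Over 27 named members, 80 values and 1468 alternative values, 1382 kept direction and side of the threshold, 18 lost a call, 36 gained one and 32 turned. In shG0s2, Cyp2c23 (-0.26) turned to 0.22 on library size alone and 0.43 with log2(TPM + 1), and Cyp2c39 (-0.43) to 0.05 and 0.20. In shRgs16, Cyp2c40 (-0.26) turned to 0.03 and 0.54, Cyp2d26 (-0.30) to 0.16 with log2(TPM + 1), and Cyp2c69 (0.07) to -0.16 with limma-voom. With log2(TPM + 1), Cyp2c23 in shG0s2 and Cyp2c40 in shRgs16 were called higher. Between the knockdowns Cyp2d22 (-0.05) turned to 0.15 and 0.13, Cyp2j5 (-0.03) to 0.17 and 0.31, and Cyp2d9 (-0.01) to 0.19 and 0.16, with 5.6e-04 by DESeq2 and 5.0e-04 by RLE scaling. Library size alone and log2(TPM + 1) each called Cyp2j5 and Cyp2d9 higher in shG0s2 than in shRgs16. Leaving out 1 sample gave ranges across 0 for Cyp2c68 in shG0s2 (-0.01 to 0.25), for Cyp2b9 (-0.02 to 0.42), Cyp2c37 (-0.04 to 0.14), Cyp2c54 (-0.03 to 0.13) and Cyp2c69 (-0.33 to 0.40) in shRgs16, and for Cyp2d22 (-0.11 to 0.01), Cyp2d9 (-0.06 to 0.04) and Cyp2j5 (-0.09 to 0.03) between the knockdowns. The cause was not tested.

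Groups share replicate numbers in the labels, but correlations of same-numbered samples ran from -0.12 to 0.22, and at most 2 of 4 samples in any pair of groups correlated best with their own number, so the numbers were not taken to pair the samples. A fit with the replicate number as a block gave 6 higher and 27 lower members in shG0s2, 8 and 18 in shRgs16, and 6 and 22 between the knockdowns. The block turned Cyp2c69 in shRgs16 to -0.05, and with it Cyp2c23 in shG0s2 (-0.27, edgeR adjusted p = 0.0431), Cyp2c40 (-0.28, adjusted p = 0.0474) and Cyp2c70 (0.57, adjusted p = 0.00605) in shRgs16, and Cyp2a5 (0.36, adjusted p = 0.0428) and Cyp2d34 (-0.56, adjusted p = 0.0226) between the knockdowns passed the threshold. Depth limits the 11 members that passed no filter, for which no change was detectable.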

Other observations

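The tables hold 22 rows with a Cyp2 symbol that the rule leaves out, such as pseudogenes, and 3 of them reached 1 TPM in shLacZ, all in subfamily Cyp2d. Cyp2d37-ps was at 36.4 TPM in shLacZ, 24.9 in shG0s2 and 21.9 in shRgs16 (means, n = 4), with log2 fold changes of -1.28 and -1.10 on TMM-scaled counts. Cyp2d38-ps was at 4.90, 4.40 and 1.76 TPM, with changes of -0.85 (edgeR adjusted p = 0.0598) and -2.47 (adjusted p = 0.00943). Cyp2d41-ps was at 2.78, 1.54 and 4.48 TPM, with changes of -1.53 in shG0s2 and 0.25 in shRgs16. How reads were divided between these copies and the coding Cyp2d genes was not analysed here.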
